A study of Mus musculus with 6 samples.

Results

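The genes examined are 10 members of the meiotic chromosome axis, measured in single mouse oocytes. They are 5 cohesin genes (Rec8, Smc1b, Stag3, Smc3 and Rad21) and 5 genes of the synaptonemal complex and its axes (Sycp1, Sycp2, Sycp3, Syce2 and Hormad1). A member was taken as any probe annotated to that single symbol, which gave 8 members with 1 probe each, among 13840 genes with such a probe on the array. No probe of a single symbol was found for Smc3 or Sycp3, so neither is reported. Every oocyte had an array of its own, and there were 3 mature oocytes deficient for Ago2 and 3 oocytes of the wild type at the germinal vesicle (GV) stage, when the cell rests in meiotic prophase with its nucleus intact. The mutant genotype is [Ago2F/F, Zp3-Cre], with both Ago2 alleles floxed and a Cre transgene under the promoter of the egg coat gene Zp3, which is active in the growing oocyte after birth, so deletion depends on that transgene in each oocyte. Ages are not in the labels beyond adult females for the GV oocytes, whose labels also say that the cells came from oviducts and were freed of cumulus cells with hyaluronidase. Oviducts hold ovulated oocytes, whereas GV oocytes are found in the ovary, so this description conflicts with the GV label and the labels do not settle the stage of the wild-type oocytes. As labelled, genotype and stage cannot be told apart, and the groups are called here by the stage the labels give.

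Cohesin is a ring that holds sister chromatids together. In meiosis several of its subunits are exchanged for germ cell forms, and in the mouse oocyte the cohesin loaded in the fetus has to last until ovulation. The synaptonemal complex is a zipper-like protein structure that joins the paired homologous chromosomes in the fetal ovary and is taken apart again before the oocyte begins to grow. Its side rails, the lateral elements, contain Sycp2 and Sycp3. Sycp1 forms the transverse filaments that span the gap, and Syce2 belongs to the central element in the middle.

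In the Ago2-deficient mature oocytes the 2 members that passed the test changed in opposite directions. Syce2 was 14.8-fold lower than in the GV oocytes, Sycp1 was 10.4-fold higher, and Sycp2 did not pass the test at 2.23-fold higher. Sycp1 entered the test through the Ago2-deficient oocytes alone, and 1 of the GV oocytes behind its fold did not detect it. Of the 8 members, 3 could be tested and 2 were called, beside 62.2% of all tested genes. The 4 cohesin genes on the array were under the detection limit in most oocytes of both groups, as most probes were, and were not tested. Hormad1, an axis protein that marks chromosome stretches not yet paired, was detected on no array.

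Because the members with the clear signals are all synaptonemal complex genes, their promoter sequences are shown here first. The windows run from 250 bases before to 50 bases after the outermost annotated start of each gene, 5′ to 3′ on the gene's strand, from RefSeq on GRCm38.p6. Capitals mark the letters CACGTG, the core of an E-box, and TCTCGCGA or its reverse complement.
Sycp1 (chr3:102936051-102936350, - strand): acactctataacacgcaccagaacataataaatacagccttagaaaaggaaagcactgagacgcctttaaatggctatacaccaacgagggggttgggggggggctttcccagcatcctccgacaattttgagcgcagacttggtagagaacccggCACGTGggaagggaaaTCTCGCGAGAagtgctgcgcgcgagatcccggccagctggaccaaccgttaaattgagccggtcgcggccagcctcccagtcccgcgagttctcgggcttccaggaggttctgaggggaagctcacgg
Sycp2 (chr2:178407609-178407908, - strand): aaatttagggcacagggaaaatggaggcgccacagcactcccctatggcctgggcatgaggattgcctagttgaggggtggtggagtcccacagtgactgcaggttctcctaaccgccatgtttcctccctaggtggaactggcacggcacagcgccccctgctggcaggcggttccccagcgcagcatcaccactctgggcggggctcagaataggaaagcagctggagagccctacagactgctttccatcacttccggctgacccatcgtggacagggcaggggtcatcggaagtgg
Syce2 (chr8:84871861-84872160, + strand): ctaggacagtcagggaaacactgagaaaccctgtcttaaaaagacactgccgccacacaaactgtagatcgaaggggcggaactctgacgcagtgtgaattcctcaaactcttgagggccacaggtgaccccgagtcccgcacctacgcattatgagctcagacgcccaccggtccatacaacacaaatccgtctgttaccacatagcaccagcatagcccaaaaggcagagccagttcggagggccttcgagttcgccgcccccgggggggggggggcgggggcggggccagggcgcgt
Of these 3 windows only that of Sycp1 held capitals, with 1 CACGTG and, further towards the start, overlapping matches to TCTCGCGA on both strands. The letters TCTCGCGA were also found in the windows of Smc1b and Stag3, which are shown as 30 bases around the match.
Smc1b (chr15:85132014-85132043, - strand): cccccgcgccagTCTCGCGAGActtcgaaa
Stag3 (chr5:138280426-138280455, + strand): cgctgcgccaagTCTCGCGAcacttctcag
Windows were found for 7 of the 8 members with a probe, Rad21 being the exception. TCTCGCGA, searched on both strands, was in 3 of the 7 and in 1.09% of 27025 promoter windows of the same length. CACGTG, which reads the same on both strands, was in the windows of Stag3, Sycp1 and Hormad1 and in 7.24% of the same 27025 windows. Both motifs were chosen after the sequences had been read, and a match is a description of the letters only. The members that share TCTCGCGA did not share a pattern on the arrays, since Sycp1 was detected in 5 oocytes, Smc1b in 2 and Stag3 in none.

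The signals are the quantile-normalized log2 values that the authors deposited for each array, and detection was set at 3 or more times the noise of the spot (the deposited signal-to-noise ratio). Each Ago2-deficient oocyte gave detection for 14.0% to 20.6% of 33012 probes, and each GV oocyte for 32.3% to 34.3%. Undetected probes had a median deposited signal of 145 to 231 on the Ago2-deficient arrays and of 70.8 to 83.3 on the GV arrays. The Ago2 probe was detected in no Ago2-deficient oocyte and in 1 GV oocyte (log2 signals 6.67, 6.49 and 6.94 in Ago2-deficient replicates 1 to 3, against 7.88, 6.25 and 6.93 in GV replicates 1 to 3). Whether that probe lies in the deleted exons is unstated, and it is no check of the deletion. Of 10 oocyte markers, 7 or 8 were detected in each Ago2-deficient oocyte and all 10 in each GV oocyte, with a summed signal of 553559 to 1324975 per Ago2-deficient oocyte and 5042269 to 5379080 per GV oocyte. Zp2 and Figla were detected in no Ago2-deficient oocyte. Of 15 cumulus and granulosa cell markers on the array, 2 to 5 were detected in each Ago2-deficient oocyte and 3 to 5 in each GV oocyte, and their summed signal was 12346 to 14309 per Ago2-deficient oocyte and 4915 to 10953 per GV oocyte. On the quantile-normalized scale that the tests used, taken back from log2, their sum was 14689 to 40690 per Ago2-deficient oocyte and 4543 to 7162 per GV oocyte, without overlap. Most of the Ago2-deficient sums came from Btc and Ereg, so this gap was not that of the list as a whole. Btc had log2 signals of 15.09, 13.16 and 13.84 and Ereg of 11.03, 11.49 and 12.45 in Ago2-deficient replicates 1 to 3. The detected markers of the list moved both ways. Btc and Ereg, growth factors of the follicle, gave detection in every Ago2-deficient oocyte but not in GV oocytes, 71.2-fold and 24.4-fold higher. Inha, an inhibin subunit, was detected in no Ago2-deficient oocyte and in all 3 GV oocytes, 6.40-fold lower. For these folds, undetected signals below the lowest detected signal of their array were raised to it, and the folds are no lower bounds. Of the rest of the list, Fshr, Amh, Has2, Tnfaip6 and Hsd3b1 were detected on no array. Foxl2 and Cyp11a1 were each detected in 1 Ago2-deficient oocyte only, and Star and Kitl each in 1 GV oocyte only. Nr5a2 was detected in 1 Ago2-deficient oocyte and 3 GV oocytes, and Amhr2 and Inhba each in 1 Ago2-deficient oocyte and 2 GV oocytes. The part of these markers in the results below was not tested.

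Of the 8 members, 3 or 4 were detected in each Ago2-deficient oocyte and 4 in each GV oocyte. Most of these detections were of synaptonemal complex genes, which were detected in 17 of their 24 values, whereas the 4 cohesin genes were detected in 5 of 24. The share for the cohesin genes was near that of all probes, which was 14.0% to 34.3% per array. No cohesin value exceeded a signal-to-noise ratio of 4.97. Since each array was loaded with amplified RNA, less RNA in the whole cell and fewer copies of 1 transcript cannot be told apart.

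**Figure D1:**
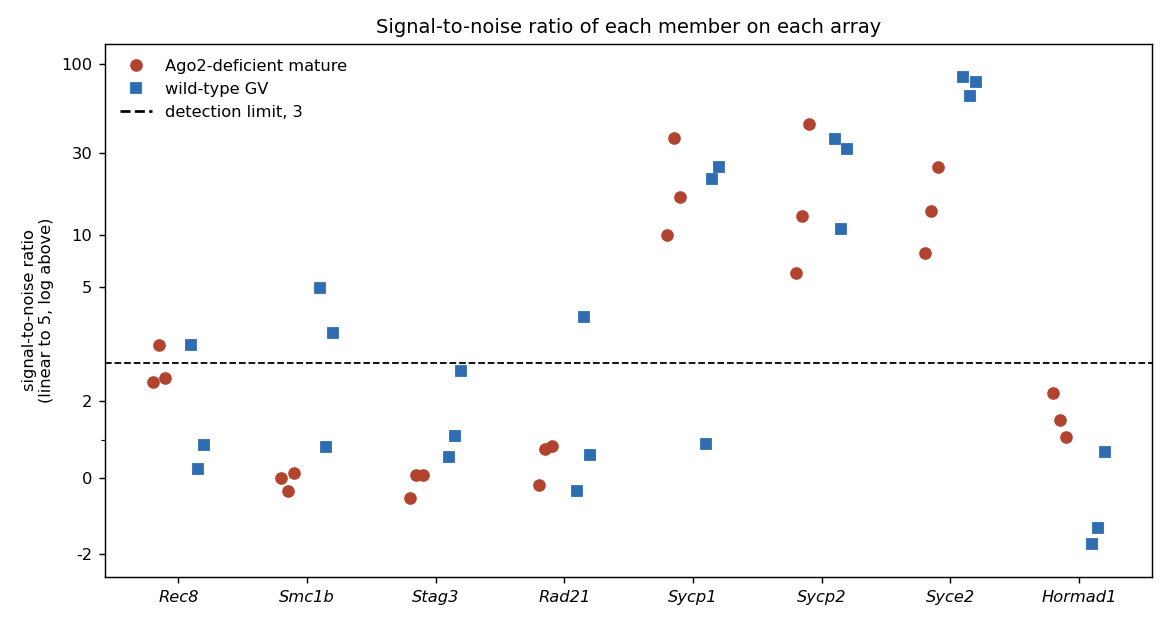
Signal-to-noise ratio (vertical axis, linear to 5 and logarithmic above) of the 8 members on each array, with circles for Ago2-deficient mature and squares for wild-type GV oocytes and a dashed line at the detection limit of 3. The cohesin genes on the left reach at most 4.97, while Syce2 lies between 7.91 and 83.33.

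Sycp1 encodes the transverse filament protein that gives the synaptonemal complex its zipper form. Its probe (409114) had log2 signals of 11.59, 12.51 and 11.83 in Ago2-deficient replicates 1 to 3, against 6.35, 10.02 and 9.43 in GV replicates 1 to 3. All 3 Ago2-deficient oocytes lay above all 3 GV oocytes, a separation of groups that 70.4% of tested genes showed in either direction, and GV replicate 1, at a signal-to-noise ratio of 0.89, was the only oocyte in which Sycp1 was not detected. The Ago2-deficient mean was 11.98 ± 0.48 and the GV mean 8.60 ± 1.97 (SD, n = 3 arrays in each group). The log2 difference was 3.38 (standard error 0.96, adjusted p = 0.0197 from limma), and Sycp1 was called higher, as were 17.4% of the 7915 genes tested, where a probe without a symbol counts as a gene of its own. Testing required detection throughout either group, and Sycp1 entered through the Ago2-deficient arrays alone, where it was high. With no filter on dim probes its adjusted p was 0.0499, at the edge of the threshold. The GV oocyte without detection carried much of the size. Without GV replicate 1 the difference was 2.26, or 4.78-fold (adjusted p = 0.0140), without GV replicate 2 it was 4.09, and without Ago2-deficient replicate 2 the call was lost at 3.11 (adjusted p = 0.0590). The unscaled signals were 1102, 4076 and 1600 in Ago2-deficient replicates 1 to 3 and 60, 1483 and 768 in GV replicates 1 to 3, and on these the groups overlapped.

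Syce2, a central element protein needed to extend synapsis along the chromosomes, was the member with the tightest replicates among those tested. Its probe (741669) read 12.57, 12.74 and 12.94 in Ago2-deficient replicates 1 to 3, against 16.77, 16.52 and 16.63 in GV replicates 1 to 3. It was detected in all 6 oocytes, and the highest Ago2-deficient oocyte lay 3.58 below the lowest GV oocyte. The Ago2-deficient mean was 12.75 ± 0.18 and the GV mean 16.64 ± 0.13 (SD, n = 3 arrays in each group). Their difference was -3.89 on the log2 scale, with a standard error of 0.30 (adjusted p = 0.000186 from limma). It was called lower, as were 44.8% of the genes tested. Relative to the median of all tested genes, which was -1.39, the difference was -2.50. That median depended on the detection filter. It was 0.13 with no filter on dim probes, where Syce2 was at -4.02 relative to it. Leaving out any 1 array moved it only between -3.80 and -3.98. The unscaled signals were also apart in this direction, at 1729, 4874 and 3602 in Ago2-deficient replicates 1 to 3 and 186743, 151538 and 148294 in GV replicates 1 to 3. The gap was wider there, with a log2 difference of -5.69.

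Sycp2, a protein of the lateral elements that binds Sycp3, was also detected in all 6 oocytes. Its probe (334735) read 10.67, 11.66 and 12.70 in Ago2-deficient replicates 1 to 3, against 10.93, 9.66 and 10.97 in GV replicates 1 to 3. The groups overlapped, with Ago2-deficient replicate 1 below GV replicates 1 and 3. The Ago2-deficient mean was 11.68 ± 1.02 and the GV mean 10.52 ± 0.74 (SD, n = 3 arrays in each group), and the log2 difference of 1.15 (standard error 0.63) was not called (adjusted p = 0.153 from limma). Without Ago2-deficient replicate 1 it was 1.66 and passed (adjusted p = 0.0389), and without Ago2-deficient replicate 3 it was 0.64 (adjusted p = 0.359). Its direction also depended on how the arrays were scaled. With the arrays scaled to a common median Sycp2 was called lower (-1.63, adjusted p = 0.0471), and with cyclic loess, which aligns the arrays by intensity, it was called higher (2.33, adjusted p = 0.00708).

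**Figure D2:**
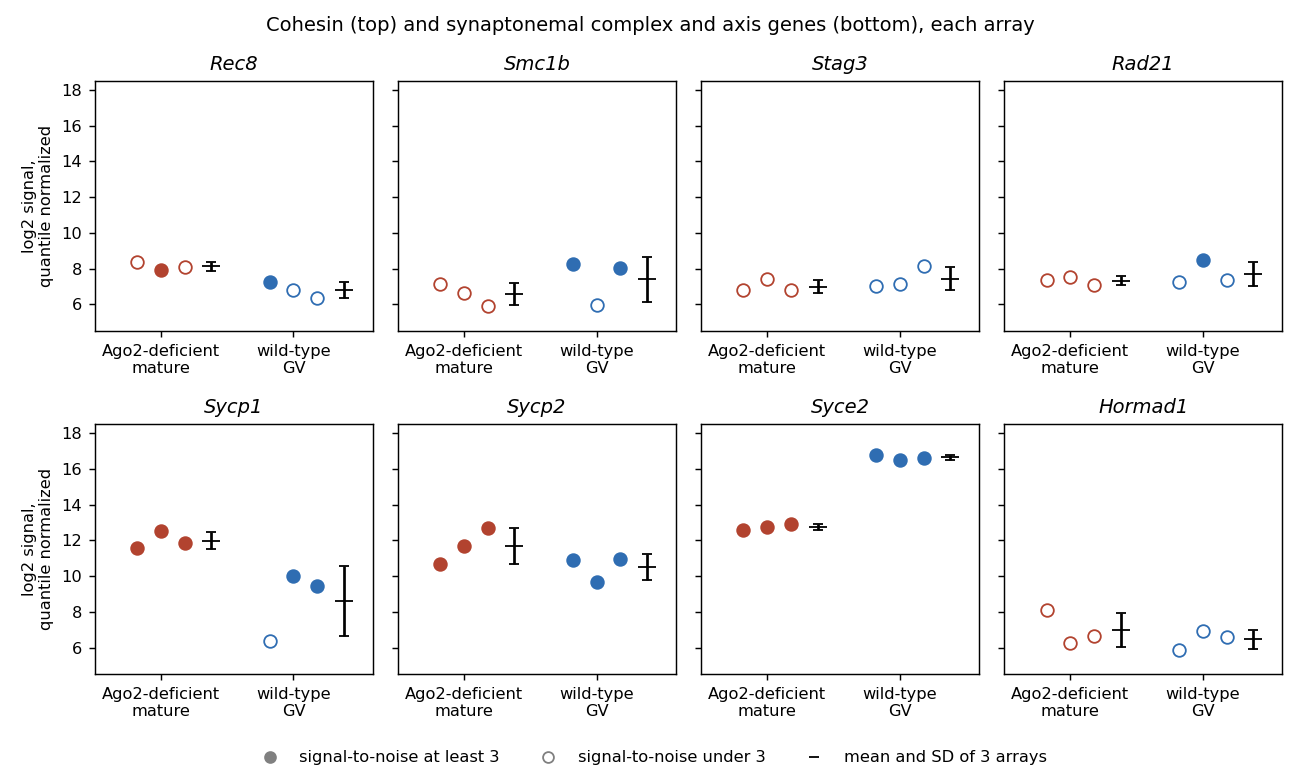
Quantile-normalized log2 signal (vertical axis) of each member on each array, with Ago2-deficient mature oocytes left and wild-type GV oocytes right in each panel; filled circles are detected values, open circles are not, and the bars give each group's mean with its SD over 3 arrays. Syce2 falls into separate groups, near 12.75 in Ago2-deficient and 16.64 in GV oocytes, Sycp1 is spread from 6.35 to 10.02 in the GV oocytes, and the top row of cohesin genes holds mostly open circles.

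The change of scaling shifted Sycp1, Sycp2 and Syce2 together more than it changed their distance from each other. For a common median, no scaling and centring on probes detected on all 6 arrays, this was fixed in advance. They differ only by a constant per array, which leaves distances between members as they are. The difference of Sycp1 ran from 1.14 with a common median to 4.73 with cyclic loess, and that of Syce2 from -6.80 to -3.71. Syce2 was called lower under each of the 6 scalings. Sycp1 was positive under each, but lost its call with a common median (adjusted p = 0.290) and with background subtracted (4.30, adjusted p = 0.0602). Scaling also moved the median of all tested genes, from -3.08 with a common median to -0.36 with cyclic loess. Relative to that median, Sycp1 was at 4.21 to 6.43, Sycp2 at 1.44 to 3.39 and Syce2 at -3.72 to -1.81 over the 6 scalings, with the same sign in each. Among the scalings that differ by a constant per array, these values are equal by construction, apart from rounding. These values hold for the filtered genes. With only probes detected on all 6 arrays the median on the deposited scaling was 0.83, and Sycp2 was just 0.32 above it. Between the members, the change of Sycp1 exceeded that of Syce2 by 7.27 to 8.44 on the log2 scale, and that of Sycp2 exceeded that of Syce2 by 5.04 to 6.04. The log2 ratio of Sycp1 to Syce2 signal within an array needs no scaling, and it was -0.65, -0.26 and -1.17 in Ago2-deficient replicates 1 to 3, against -6.68 and -7.59 in GV replicates 2 and 3. No ratio is given for GV replicate 1, in which Sycp1 was not detected. The ratio was chosen after the values were seen and is a description, and since a pair of probes can differ in brightness for the same amount of RNA it does not say which transcript was the more abundant.

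**Figure D3:**
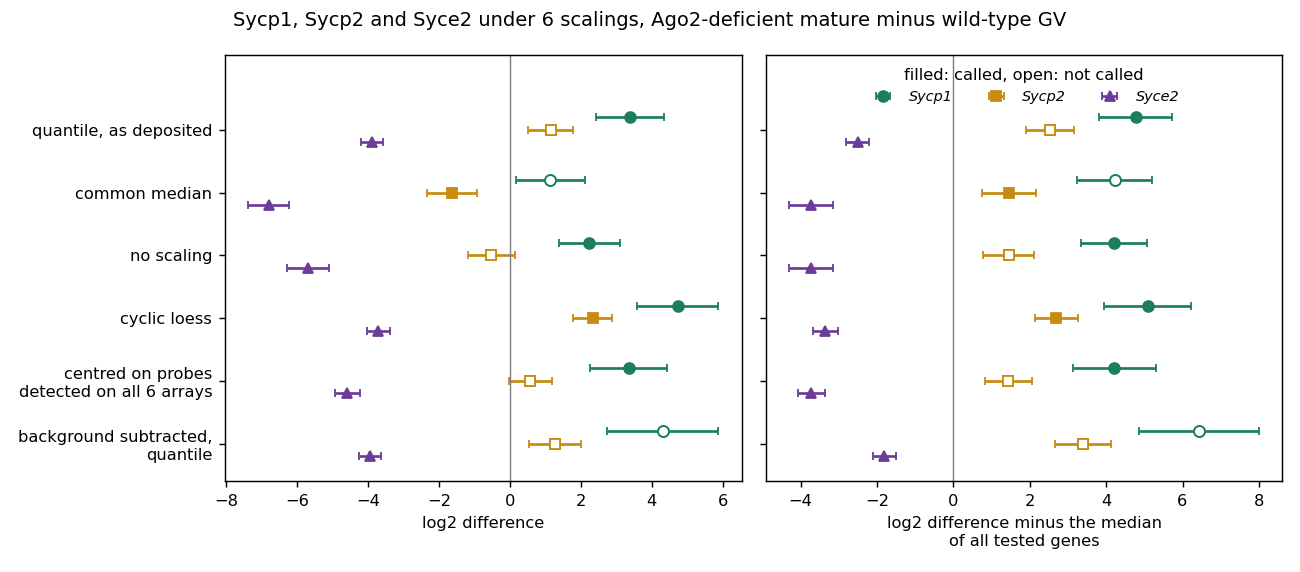
Log2 difference (left) and log2 difference minus the median of all tested genes (right) of Sycp1, Sycp2 and Syce2 under 6 scalings of the arrays, Ago2-deficient mature minus wild-type GV; bars are standard errors, and filled symbols are called. Syce2 stays left of 0 and Sycp1 right of 0 in both panels, and Sycp2 crosses 0 in the left panel only, from -1.63 with a common median to 2.33 with cyclic loess.

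Rec8 is the meiotic kleisin, the subunit that closes the cohesin ring and is cut at anaphase to release the chromosomes. Its log2 signals were 8.37, 7.90 and 8.11 in Ago2-deficient replicates 1 to 3, against 7.27, 6.82 and 6.36 in GV replicates 1 to 3. The groups did not overlap, but Rec8 was detected in only 1 oocyte of each group, Ago2-deficient replicate 2 at a signal-to-noise ratio of 3.49 and GV replicate 1 at 3.48. It was therefore not tested. With no filter on dim probes its difference of 1.31 was not called (adjusted p = 0.0901 from limma), beside 14.4% of 32441 genes called in either direction, and 5.26% called higher, in that fit. On the same unfiltered set, groups did not overlap in 32.0% of genes, and all 3 Ago2-deficient oocytes lay above all 3 GV oocytes in 14.7%. The deposited signals were 388, 357 and 252 in Ago2-deficient replicates 1 to 3 and 119, 75 and 51 in GV replicates 1 to 3. The median of undetected probes was likewise higher on the Ago2-deficient arrays, at 145 to 231, than on the GV arrays, at 70.8 to 83.3, and its part in the difference was not tested.

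Smc1b, the meiotic form of an SMC arm of the ring, was the cohesin gene with the highest signal-to-noise ratio. It read 7.12, 6.65 and 5.91 in Ago2-deficient replicates 1 to 3, none of them detected, against 8.25, 5.98 and 8.04 in GV replicates 1 to 3, of which replicates 1 and 3 were detected. The groups overlapped because GV replicate 2 was as dim as the Ago2-deficient oocytes. The difference of -0.86 was not tested, and with no filter its adjusted p was 0.497. Without GV replicate 2, the dim GV oocyte, the probe entered the test through the GV group, where it was then high by selection, and its difference of -1.58 (adjusted p = 0.0497) is given as a description only. With the arrays centred on probes detected throughout, the sign turned (1.11).

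Stag3, the meiotic form of the subunit that sits on the kleisin, was detected on no array. It gave 6.79, 7.42 and 6.78 in Ago2-deficient replicates 1 to 3, against 7.03, 7.12 and 8.17 in GV replicates 1 to 3, and the highest, GV replicate 3, had a signal-to-noise ratio of 2.80. Rad21, the kleisin of dividing somatic cells that is also present in germ cells, was detected only in GV replicate 2. It read 7.36, 7.56 and 7.06 in Ago2-deficient replicates 1 to 3, against 7.25, 8.46 and 7.37 in GV replicates 1 to 3. In both genes the groups overlapped, and the differences of -0.44 and -0.36 were smaller than their standard errors of 0.48 and 0.47 in the fit with no filter. With no scaling of the arrays both turned positive, at 0.61 for Stag3 and 0.57 for Rad21, and without GV replicate 2 Rad21 was at 0.02.

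Hormad1 read 8.09, 6.27 and 6.64 in Ago2-deficient replicates 1 to 3, against 5.88, 6.93 and 6.58 in GV replicates 1 to 3, with no value above a signal-to-noise ratio of 2.21. The groups overlapped, and the difference of 0.54 came from Ago2-deficient replicate 1, without which it was -0.01. None of the members left out of the test was called in the fit with no filter on dim probes. At this signal that does not show that their transcripts were absent or equal.

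Genes that work with these complexes were taken from 4 lists, and 17 of them could be tested. Of the other cohesin subunits and cohesin regulators, 11 had a probe and 4 were tested, of which 1 was lower and none was higher, beside 44.8% and 17.4% of all tested genes, with a median log2 difference of -1.57 beside -1.39 for all tested genes. The lower gene was Sgo2a, the shugoshin that shields Rec8 from cleavage at centromeres in the first meiotic division. Sgo2a read 6.58, 9.25 and 7.36 in Ago2-deficient replicates 1 to 3, against 10.80, 10.60 and 10.89 in GV replicates 1 to 3. Its difference was -3.03 (standard error 0.68, adjusted p = 0.00794 from limma), and it was detected in 1 Ago2-deficient oocyte. Sgo2a entered the test through the GV oocytes alone, where it was high, and with no filter on dim probes its adjusted p was 0.0231. Without Ago2-deficient replicate 2, the oocyte that had it, Sgo2a was 13.8-fold lower. With cyclic loess Sgo2a lost its call (-1.05, adjusted p = 0.0681). Pttg1, the securin that holds back the enzyme that cuts Rec8, averaged 20.19 ± 0.19 in Ago2-deficient oocytes and 19.74 ± 0.12 in GV oocytes and was not called (0.45, adjusted p = 0.238). Esco2, an acetyltransferase that locks cohesin onto chromatin, was just outside the threshold at -1.85 (adjusted p = 0.0523) and passed it with a common median (-4.24), with no scaling (-3.14), without Ago2-deficient replicate 1 (adjusted p = 0.0409) and without Ago2-deficient replicate 3 (0.0341). Without Ago2-deficient replicate 2 it differed by -1.12. Nipbl, which loads cohesin, was the other gene not called (-1.29, adjusted p = 0.397) and is named after its values were seen. Without Ago2-deficient replicate 3 the lower genes of this list numbered 3, and without Ago2-deficient replicate 1 there were 2, and 1 higher.

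In the list of other synaptonemal complex and chromosome axis genes 5 had a probe and 2 were tested. Of these 1 was higher and 1 lower, beside 17.4% and 44.8% of all tested genes. The tested genes, Tex15 and Sun1, are not structural parts of the complex, so none of its further components was tested. Tex15, a germ cell protein known in mouse testis for meiotic recombination and transposon silencing, read 13.45, 13.25 and 13.34 in Ago2-deficient replicates 1 to 3, against 7.42, 10.10 and 9.29 in GV replicates 1 to 3. The groups did not overlap, as in 70.4% of tested genes, and the difference was 4.41 (standard error 0.68, adjusted p = 0.00170 from limma). Tex15 entered the test through the Ago2-deficient arrays alone, where it was high, and with no filter on dim probes its adjusted p was 0.00455. As with Sycp1, GV replicate 1 was the dimmest oocyte and was not detected. Without it the difference was 3.65, or 12.6-fold, against 21.2-fold with all arrays. Over the scalings Tex15 ran from 2.06 with a common median to 6.01 with cyclic loess, called higher in each. Sun1, the nuclear envelope protein that tethers telomeres in prophase, was detected in all GV oocytes and in no Ago2-deficient oocyte. It entered the test through the GV oocytes alone. Sun1 was 6.51-fold lower (adjusted p = 0.00108 from limma, 0.00488 with no filter on dim probes). For that fold, undetected signals below the lowest detected signal of their array were raised to it, on the deposited scaling. Such folds are no lower bounds, since the lowest detected log2 signal was only 6.02 to 6.31 on the Ago2-deficient arrays. Undetected probes there had medians of 6.99 to 7.07. The folds hold for that scaling alone. With the arrays centred on probes detected throughout, Sun1 differed by -1.27 (adjusted p = 0.0418).

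In the recombination list 12 genes had a probe and 6 were tested, of which 3 were lower and none was higher, beside 44.8% and 17.4% of all tested genes, with a median of -1.98 beside -1.39. In 4 of the 6 no Ago2-deficient oocyte gave detection, so these entered only through the group in which they were high. Mre11a, a nuclease that trims the ends of DNA breaks, averaged 6.51 ± 0.53 in Ago2-deficient oocytes and 12.70 ± 0.26 in GV oocytes. It was 71.1-fold lower, with low undetected signals raised as for Sun1 (adjusted p = 0.000121 from limma). Psmc3ip, also known as Hop2, which helps broken ends find the homologous chromosome, was 45.3-fold lower, taken in the same way (adjusted p = 0.000416). Every GV oocyte gave detection of both, and no Ago2-deficient oocyte did. With cyclic loess the differences were smaller, at -4.01 for Mre11a and -4.05 for Psmc3ip, against -6.19 and -5.87 on the deposited scaling, and both were still called lower. Its partner Mnd1 differed from Psmc3ip in the same oocytes. Mnd1 was detected on all 6 arrays and averaged 14.95 ± 0.34 in Ago2-deficient oocytes and 15.19 ± 0.22 in GV oocytes, and it was not called at -0.23 (adjusted p = 0.572). It was called lower with a common median (-3.29), with no scaling (-2.18) and when centred on probes detected throughout (-1.07). Exo1, an exonuclease of resection and crossing over, was lower at -2.52 (standard error 0.51, adjusted p = 0.00492), and at -5.62 with a common median. Mus81, a crossover nuclease, did not pass at -0.55 (adjusted p = 0.525), whereas it was called lower at -1.38 without Ago2-deficient replicate 2 (adjusted p = 0.0126) and at -1.72 with a common median, and was 0.86 with cyclic loess. Msh4, also not called at -1.43, is named after its values were seen. Without Ago2-deficient replicate 2 the lower genes of this list numbered 5.

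The other SMC complexes, condensin and SMC5/6, had 9 genes with a probe and 5 tested. Of these 2 were higher and 2 lower, beside 17.4% and 44.8% of all tested genes, with a median of 0.60 beside -1.39. Among the 5, 3 were detected on all 6 arrays, and the median of all genes so detected was 0.83. Smc6 averaged 15.97 ± 0.09 in Ago2-deficient oocytes and 12.47 ± 0.39 in GV oocytes (difference 3.50, adjusted p = 0.000309 from limma), and Smc4, a condensin arm, averaged 15.23 ± 0.15 in Ago2-deficient oocytes and 12.96 ± 0.44 in GV oocytes (2.27, adjusted p = 0.00175). Both depended on the scaling, since with a common median Smc6 differed by 0.48 and Smc4 by -0.92 and neither was called. With no scaling Smc4 was not called either (0.18). The genes detected in no Ago2-deficient oocyte were Nsmce1, a subunit of SMC5/6, and Ncaph2, a subunit of condensin II. With low undetected signals raised as for Sun1, they were 15.2-fold and 7.62-fold lower on the deposited scaling. Both entered the test only through the GV oocytes. Nsmce1 differed by -2.12 with cyclic loess, against -3.93, and Ncaph2 by -1.89 with the arrays centred on probes detected throughout, against -3.20, both still called lower. Ncapd3, also of condensin II, was not called at 0.60, but was -2.72 with a common median and -1.62 with no scaling, where it was called lower.

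**Figure D4:**
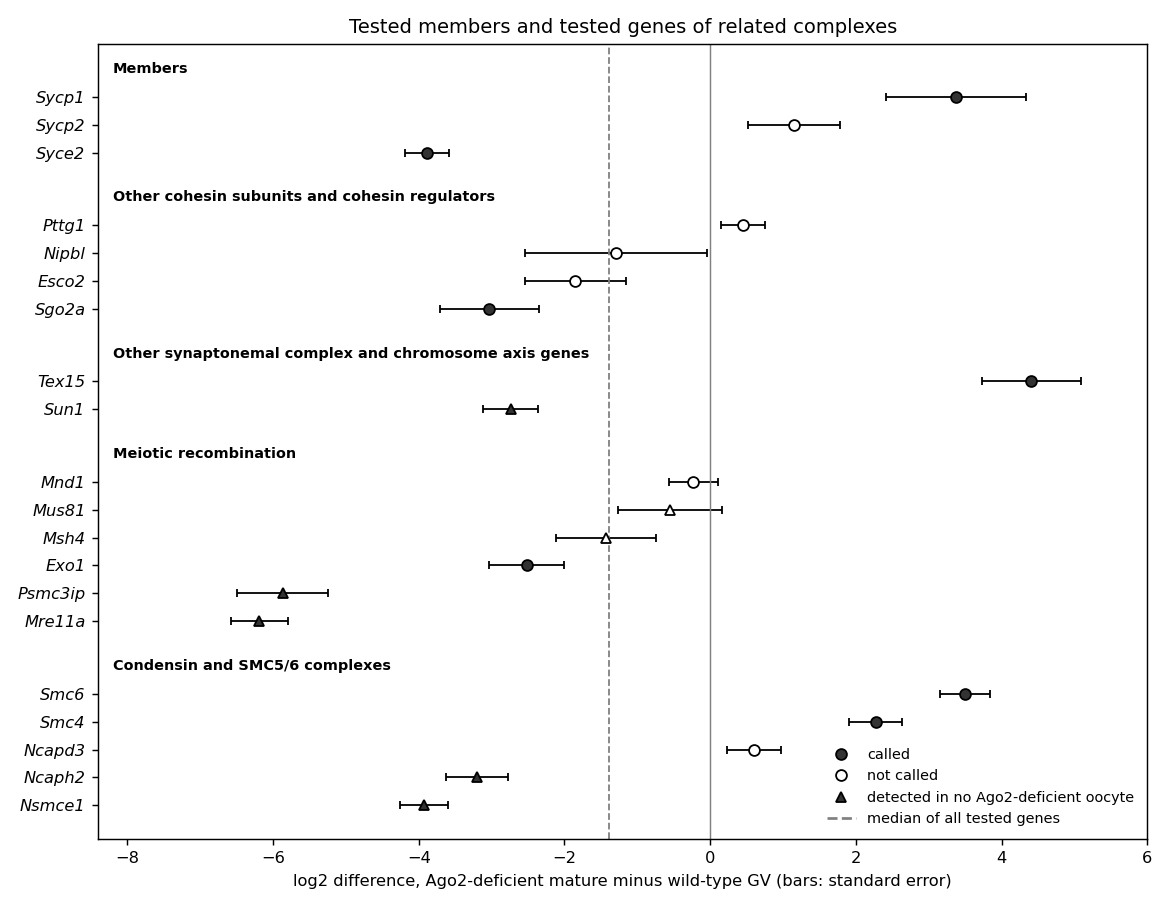
Log2 difference, Ago2-deficient mature minus wild-type GV (horizontal axis), of the 3 tested members and of 17 tested genes from 4 related lists; bars are standard errors, filled symbols are called, triangles mark genes with no detection in the Ago2-deficient group, plotted at the fitted value with no signal raised, and a dashed line stands at -1.39, the median over every gene tested. Sycp1 at 3.38 and Syce2 at -3.89 lie on opposite sides of 0, and Mre11a at -6.19 and Psmc3ip at -5.87 lie furthest left.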

How the data were processed

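Single oocytes, 3 Ago2-deficient mature and 3 wild-type GV, were each amplified and hybridized to a chemiluminescent Applied Biosystems mouse array. The deposited signal intensity of each probe is unscaled between arrays, and a signal-to-noise score and a spot flag code were deposited beside it. The authors also deposited log2 values that were quantile normalized over the 6 arrays, and the series table repeats them with 2675 flagged cells empty. Which software read the scans is not stated in the sources.

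Probes were named from the array's annotation, in which 14411 carry 1 symbol, 247 several and 18354 none. Where several probes of a gene were tested, that with the highest mean stood for it. Differences came from limma 3.58.1 (lmFit, then eBayes; R 4.3.3) on the deposited log2 values of 8018 probes, those at a signal-to-noise ratio of 3 or more on all 3 arrays of a group, with Benjamini and Hochberg adjustment over all of them. A call needed an adjusted p below 0.05 and a change over 2-fold, which gave 1378 higher and 3543 lower, or 62.2% of 7915. No block was used. The number of arrays limits the precision, and the labels do not say whether oocytes came from separate animals, so p-values measure the spread between these oocytes. The fit was tested on simulated data.

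The members and lists were chosen with earlier results of these data known. Named genes are all members and, in each list, up to 4 called genes with the largest change and up to 2 not called with the highest mean. Figures were made with matplotlib 3.10.9 (Python 3.11.15).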

Additional observations from a re-analysis of the deposited data

How the results depend on the processing

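Syce2 was called lower under all 21 alternatives fitted, with log2 differences from -6.80 to -3.71. Sycp1 was positive under the 20 that tested it and called higher under 14. Besides those given above, it was not called with ordinary t-statistics (adjusted p = 0.0741), with array weights (0.0753) or at an adjusted p under 0.01. Sycp2 was called higher in 2, lower in 1 and not called in 18, and its sign turned with a common median (-1.63) and when the arrays were left unscaled (-0.52).

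The number of members called lower was 2 in place of 1 with a common median. The number called higher was 0 in place of 1 with a common median, background subtracted, only probes detected on all 6 arrays, an adjusted p under 0.01, ordinary t-statistics or array weights, and 2 with cyclic loess. With 1 array left out, 1 to 2 members were lower and 0 to 2 higher, the exceptions being those without GV replicate 2 (2 lower, with Smc1b, which enters the test only once that dim oocyte is left out), Ago2-deficient replicate 1 (2 higher, with Sycp2) and Ago2-deficient replicate 2 (0 higher). Over all genes, 312 were higher and 6220 lower with a common median, 611 and 4774 when left unscaled, 1955 and 2510 with cyclic loess, and 1128 and 543 among probes detected on all 6 arrays. With 1 array left out, 1207 to 1959 were higher and 3021 to 3807 lower. The median difference of all tested genes was -3.08 with a common median, -1.97 without scaling, -0.36 with cyclic loess, -0.86 when centred on probes detected throughout and -2.13 with background subtracted. On the deposited scaling it was 0.13 with no filter on dim probes and 0.83 with only probes detected on all 6 arrays. The median of -1.39 set beside members and lists thus belongs to the filtered genes.

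Of the genes of related lists, Pttg1 reversed with a common median (-1.25), without scaling (-0.14) and cyclic loess (-0.03), and Mus81 with cyclic loess (0.86) and with that centring (0.49). Smc4 reversed with a common median (-0.92). So did Ncapd3 with a common median (-2.72), without scaling (-1.62) and that centring (-0.51). In the lists, the cohesin regulators called lower numbered 1, but 3 with a common median or no scaling, 2 with that centring, array weights or the block described next, and 0 with cyclic loess. The recombination genes called lower numbered 3, but 6 with a common median, and the SMC complex genes called higher numbered 2, but 1 with no scaling and 0 with a common median. With only probes detected on all 6 arrays, the lists held 1 lower gene, Exo1. At a signal-to-noise limit of 2, 5 members were detected in Ago2-deficient replicate 1 in place of 3, and at a limit of 5, 2 in GV replicate 1 in place of 4.

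The labels number the replicates 1 to 3 in both groups. Same-numbered oocytes did not deviate together from their groups (r = -0.0487, 0.0275 and -0.0339 across tested probes), so the numbers were not used. With a replicate block Sycp1 had an adjusted p of 0.0130, Syce2 0.00286 and Sycp2 0.152, 1291 genes were higher and 3384 lower, and Esco2 was called (0.0414). Each member had 1 probe, so there was no other probe to try. Signal mostly under the limit of detection left the cohesin genes and Hormad1 without a test.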

Other observations

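Smc5, the partner of Smc6 in its complex, had several probes, which did not follow each other. The probe 899733 read 14.37, 11.29 and 6.12 in Ago2-deficient replicates 1 to 3, of which only replicate 1 was detected, against 8.07, 7.65 and 6.64 in GV replicates 1 to 3, of which replicate 1 was detected. The probe 686489 read 7.84, 10.19 and 8.09 in Ago2-deficient replicates 1 to 3, and 8.78, 8.60 and 7.80 in GV replicates 1 to 3 and was detected in none. Neither was tested. Sgo2a also had a further probe (774873), detected on no array, at 6.20, 6.16 and 6.93 in Ago2-deficient replicates 1 to 3 and 6.55, 7.53 and 7.69 in GV replicates 1 to 3, while the probe reported above was detected in every GV oocyte.

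Some cohesin genes of the lists that were not tested were detected in Ago2-deficient oocytes only. The cohesin release factor Wapl was detected in 2 of them and the somatic cohesin subunit Stag1 in 1, and neither was detected in a GV oocyte. Averages were 8.30 ± 2.27 in Ago2-deficient oocytes and 6.66 ± 0.88 in GV oocytes for Wapl, and 7.34 ± 2.03 in Ago2-deficient oocytes and 6.70 ± 0.50 in GV oocytes for Stag1 (SD, n = 3). Pds5b of the same list went the other way, detected in no Ago2-deficient oocyte and in 1 GV oocyte (6.85 ± 0.86 and 7.92 ± 0.78). The other untested genes of the list, Smc1a, Stag2, Cdca5 and Hdac8, were detected on no array. Wapl and Stag1 were chosen after their values were seen.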
